A study of Mus musculus with 9 samples.

Results

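The genes followed here encode the peroxins that build peroxisomes and the lipid enzymes, transporters and catalase that work in them. They were picked by gene symbol and make up 31 of the 48820 genes with FPKM values. By role they are 13 peroxins, 12 oxidation and auxiliary enzymes, 2 acyl-CoA transporters, 3 enzymes of ether lipid synthesis and catalase. RNA-seq was done on hearts of untreated wild-type (WT) C57BL/6J mice at embryonic day 18.5 (E18.5d), postnatal day 1 (P1d) and postnatal day 7 (P7d). Each stage had 3 hearts given as biological replicates, and all 9 hearts shared genotype, strain, the label male and the absence of treatment. The labels name the tissue as heart without a chamber and do not tie hearts to litters. The p-values below therefore set stage differences against the spread among these hearts only. The design asks how expression of these genes changed from the fetal heart to the first day and the first week after birth.

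Peroxisomes are small organelles bounded by a single membrane. Their matrix enzymes are made in the cytosol and imported by peroxins, and very-long-chain and branched-chain fatty acids are shortened inside them before mitochondria take over. The first oxidation step makes hydrogen peroxide, which catalase breaks down, and the first steps of ether lipid (plasmalogen) synthesis take place there as well. The heart is rich in plasmalogens and, after birth, draws most of its energy from fatty acids, which are burned mainly in mitochondria.

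Genes of peroxisomal fatty acid oxidation are textbook targets of PPARα, which binds DNA with RXR at 2 copies of the letters AGGTCA with 1 base between them. The RefSeq promoter windows (GRCm38.p6) of 26 of the 31 members, 30 windows in all, were searched for this element. Each window ran from 250 bases before to 50 bases after a transcription start site. The windows printed here are those of *Pex16*, *Cat* and *Ehhadh*, which had the 3 largest changes at P1d, and of *Scp2* and *Phyh*, which hold the letters AGGTCA and rose at each step. Capitals mark AGGTCA, or its reverse complement TGACCT, and in *Cat* the whole element.
*Cat*, chr2:103485104-103485403, minus strand: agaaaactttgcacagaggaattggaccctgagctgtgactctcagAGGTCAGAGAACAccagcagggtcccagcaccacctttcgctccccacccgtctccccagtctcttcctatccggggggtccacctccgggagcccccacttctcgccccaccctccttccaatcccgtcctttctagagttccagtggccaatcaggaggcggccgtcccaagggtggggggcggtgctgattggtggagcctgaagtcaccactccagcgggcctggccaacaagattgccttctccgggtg
*Scp2*, chr4:108118498-108118797, minus strand: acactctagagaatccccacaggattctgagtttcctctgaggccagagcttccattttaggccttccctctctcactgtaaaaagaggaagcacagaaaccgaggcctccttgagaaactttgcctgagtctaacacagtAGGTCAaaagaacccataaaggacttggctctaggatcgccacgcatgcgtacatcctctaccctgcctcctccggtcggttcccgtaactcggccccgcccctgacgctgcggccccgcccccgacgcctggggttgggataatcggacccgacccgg
*Phyh*, chr2:4918746-4919045, plus strand: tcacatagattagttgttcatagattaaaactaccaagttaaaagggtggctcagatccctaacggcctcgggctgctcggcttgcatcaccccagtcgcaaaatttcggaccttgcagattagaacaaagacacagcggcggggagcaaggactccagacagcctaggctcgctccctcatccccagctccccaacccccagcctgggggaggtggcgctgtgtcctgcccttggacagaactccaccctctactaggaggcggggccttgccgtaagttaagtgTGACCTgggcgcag
*Ehhadh*, chr16:21787785-21788084, minus strand: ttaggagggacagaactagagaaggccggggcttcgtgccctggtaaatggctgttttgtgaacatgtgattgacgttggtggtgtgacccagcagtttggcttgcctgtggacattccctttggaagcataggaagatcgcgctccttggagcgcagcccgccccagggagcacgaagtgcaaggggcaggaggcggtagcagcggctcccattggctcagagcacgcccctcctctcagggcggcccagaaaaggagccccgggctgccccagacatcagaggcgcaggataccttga
*Pex16*, chr2:92374426-92374725, plus strand: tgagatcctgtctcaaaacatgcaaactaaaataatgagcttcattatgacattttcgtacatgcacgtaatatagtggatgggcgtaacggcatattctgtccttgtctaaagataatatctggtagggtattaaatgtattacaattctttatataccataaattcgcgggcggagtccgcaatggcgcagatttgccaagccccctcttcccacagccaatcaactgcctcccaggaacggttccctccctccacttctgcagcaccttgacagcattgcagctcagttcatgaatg

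Both strands were searched, and up to 2 mismatches over the 12 letters of the paired element were allowed. The window of *Cat*, the catalase gene, held the only match among the members, AGGTCAGAGAACA with 2 mismatches, beginning 204 bases before the start site. This 1 match in 30 member windows (3.33%) stood beside 3.86% of all 32851 windows. The exact letters AGGTCA, which in *Cat* are the first part of the paired match, were in 4 of the 30 member windows (13.3%) and in 16.3% of all windows. These 4 were the windows of *Pex11g*, *Scp2*, *Phyh* and *Cat*. A match describes the letters only and is not a binding site, and the windows of *Ehhadh* and *Pex16* held neither the pair nor the single AGGTCA. Member windows held a median of 18 CG dinucleotides, against 7 in all windows, and a median GC content of 58.8% against 52.7%. All windows were not limited to genes expressed in these hearts, so this is not read as a trait of the members.

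Depth, read from the steps between low FPKM values, was 25500000 to 45000000 fragments per heart. FPKM columns summed to 1347981 to 1794160, with the highest sum in P1d replicate 2. That heart also held the most RNA of liver markers, a summed 37.2 FPKM over 6 genes against 2.83 to 9.48 FPKM in the E18.5d and P7d hearts. The 4 lung markers, mostly *Scgb3a2*, summed to 137 FPKM in E18.5d replicate 2 and 221 FPKM in P1d replicate 1, against 0.23 FPKM or less in every P7d heart. These sums came from *Scgb3a2* and *Scgb1a1*, and the other lung markers, *Sftpc* and *Sftpb*, were at 0.63 FPKM or less in every heart. The 6 cardiomyocyte markers were high in every heart, and their summed level was 17889 to 18587 FPKM in the fetal hearts, 20838 to 23337 FPKM in the P1d hearts and 21965 to 23174 FPKM in the P7d hearts, with no overlap between fetal and postnatal hearts. The part of these markers' shifts in the changes of the members was not tested. *Xist*, made in female cells, was above 1 FPKM in 4 of the 9 hearts although all carry the label male, namely in 2 E18.5d and 2 P7d hearts. The Y-linked *Ddx3y*, *Kdm5d*, *Uty* and *Eif2s3y* were listed at 0 in exactly these 4 hearts and at 9.74 to 40.9 FPKM in the other 5, so that the label goes against both measures there. The fits were therefore repeated with *Xist* as a covariate and without those 4 hearts.

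Between E18.5d and P1d the peroxisomal genes moved mostly upward. On the scale of log2(FPKM + 1), 29 of the 31 members passed the filter of a mean of at least 1 FPKM. In limma, with Benjamini-Hochberg adjustment over all 13618 genes tested, 17 of these 29 were higher at P1d (58.6%, against 18.4% of all genes tested). Only *Agps* and *Far1*, both of ether lipid synthesis, were lower (6.9%, against 27.6% of all genes). The median log2 change was 0.29 over the members and -0.06 over all genes. By role, 6 of 13 peroxins, 9 of 11 tested oxidation and auxiliary enzymes, *Abcd3* and *Cat* were higher. The summed cardiomyocyte and adipose markers were also higher in all P1d than in all E18.5d hearts. *Myh6* made up most of the cardiomyocyte rise, and the mean of *Actc1* was lower at P1d. Without E18.5d replicate 2 or P1d replicate 1, the hearts with the most *Scgb3a2* and *Scgb1a1*, 14 and 17 members were called higher. Of all 13618 genes 2092 and 2141 were called higher in these fits. In bulk tissue, more RNA per cell and more cells of a type cannot be told apart.

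The FPKM columns can be put on a common scale in several ways, and this moved the number of members called. Under median of ratios the P1d calls were 19 upward and 2 downward, against 3215 and 3031 of all 13618 genes. With columns scaled to equal sums they were 7 upward and 3 downward, against 1175 and 4694 of all genes. The median log2 change of all genes was 0.01 with median of ratios and -0.21 with equal sums. Relative to that shift the members' median lay higher by 0.35 as deposited, by 0.34 with median of ratios and by 0.34 with equal sums. With a covariate for *Xist* 11 members were called higher at P1d, against 1607 of all 13618 genes. No P1d heart was above 1 FPKM of *Xist*, against 2 hearts at each other stage, so stage and *Xist* level are partly mixed. The fit of the 5 hearts under that level kept 1 heart at E18.5d and 1 at P7d. In it *Pex19* changed by 0.57 at P1d. With so few hearts its calls are not read as a result about the members.

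At P7d fewer members stood above the fetal level. Compared with E18.5d, 7 of 29 were higher (24.1%, against 12.5% of all genes), namely *Pex19*, *Acox3*, *Ehhadh*, *Scp2*, *Phyh*, *Abcd3* and *Cat*. *Agps* and *Far1* were again the 2 lower members (6.9%, against 36.9% of all genes). The median log2 change was 0.09 over the members and -0.17 over all genes. This count depended strongly on the scaling: under median of ratios the threshold was passed upward by 19 members and downward by 1, and under equal sums by 6 and 1. Of all 13618 genes, 3159 passed upward and 2545 downward under median of ratios, and 1267 and 4443 under equal sums.

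Between P1d and P7d, 12 of 29 members fell (41.4%, against 28.6% of all genes) and 2, *Scp2* and *Phyh*, rose (6.9%, against 15.5% of all genes). The median log2 change was -0.07 over the members and -0.09 over all genes. By role it was -0.20 over the peroxins and -0.19 over the oxidation and auxiliary enzymes. With median of ratios 5 members were lower and 4 higher, with equal sums 3 lower and 4 higher, and with quantile normalization 8 lower and 4 higher. Of all 13618 genes, these scalings in turn gave 2471 lower and 3194 higher, 1729 and 2200, and 2787 and 2879. Leaving out P7d replicate 3 left 7 members lower, beside 3190 of all genes. The 3 comparisons share hearts and are not independent. As deposited, 19 of the 29 members had their highest mean at P1d, 8 at P7d and 2 at E18.5d. The same count was not made over all genes, so it is not read as a trait of the members. P1d replicate 2 also had the highest sum of FPKM of all hearts.

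**Figure D1:**
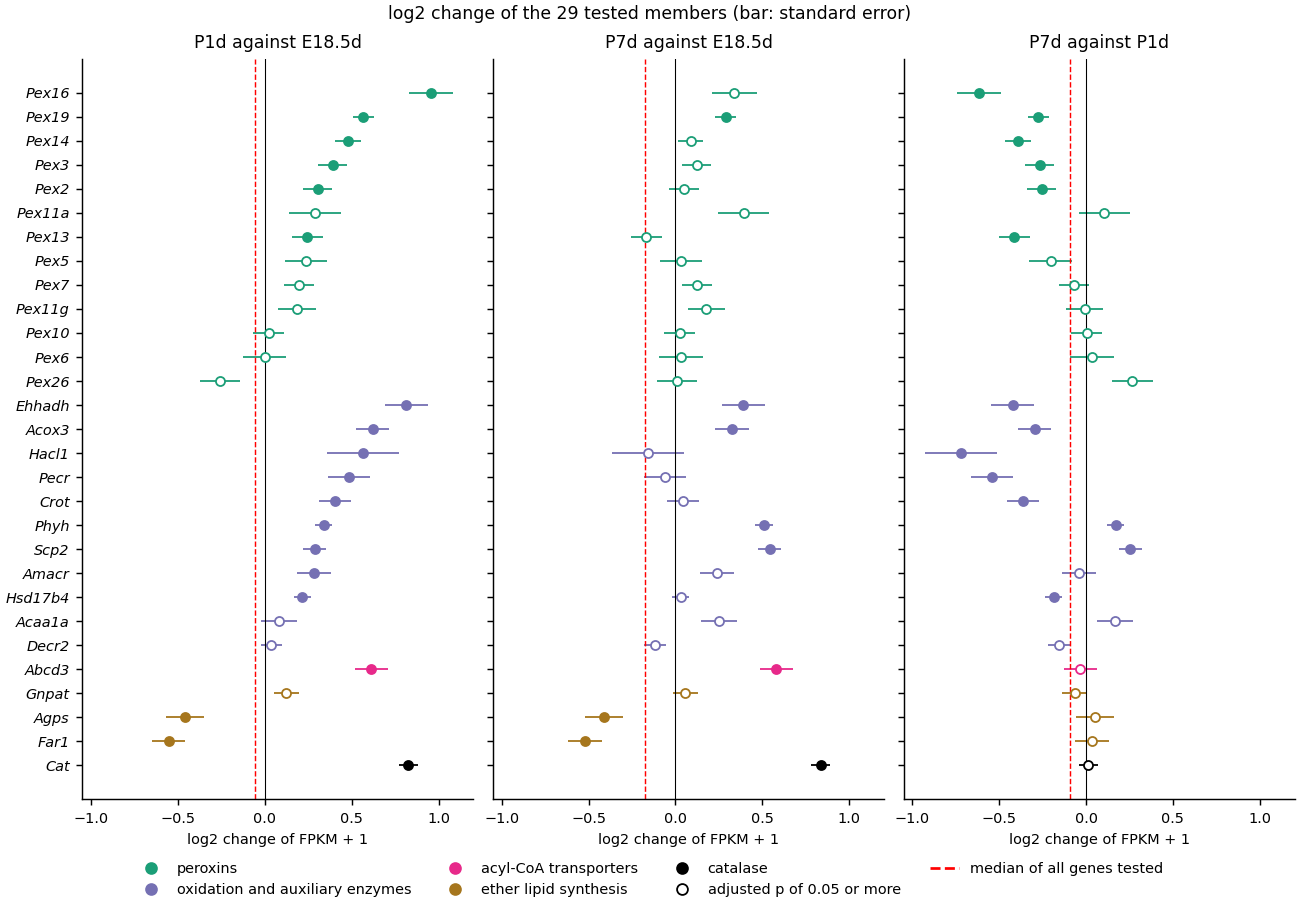
Log2 change of FPKM + 1 of the 29 tested members in the 3 comparisons, grouped by role, with horizontal bars for the standard error. Filled points have an adjusted p under 0.05 in limma, and the dashed line is the median of all genes tested; most peroxins and enzymes lie to the right of it at P1d, and *Agps* and *Far1* lie to the left in both comparisons with E18.5d.

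Of the peroxins, those that insert the peroxisomal membrane proteins rose together at P1d. *Pex16*, which recruits the membrane receptor to peroxisomes, was at 6.67, 5.19 and 6.14 FPKM in the E18.5d hearts, at 13.3, 14.6 and 10.1 FPKM at P1d and at 7.66, 8.42 and 7.41 FPKM at P7d. Every P1d heart was above every heart of the other stages. The mean rose 2.11-fold from 6.00 ± 0.75 to 12.7 ± 2.27 FPKM (SD, n = 3 hearts each) at P1d, a log2 change of 0.96 (SE 0.13, adjusted p = 0.00032 in limma), the largest among the members. By P7d it had fallen again by 0.62 on the log2 scale (SE 0.13, adjusted p = 0.00409). The remaining difference from E18.5d, 0.34, did not pass the threshold (adjusted p = 0.0513) but did with median of ratios (0.52, adjusted p = 0.0106).

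*Pex19*, the shuttling receptor and chaperone for membrane proteins, was the most abundant peroxin. Its levels were 55.3, 53.0 and 51.2 FPKM at E18.5d, 76.2, 81.8 and 79.8 FPKM at P1d and 65.6, 68.8 and 61.4 FPKM at P7d, with no overlap between any 2 stages. It rose by 0.57 at P1d (SE 0.06, adjusted p = 8.86e-05) and was still 0.29 above E18.5d at P7d (adjusted p = 0.00342). The fall between P1d and P7d of 0.28 (adjusted p = 0.00521) was lost with median of ratios (adjusted p = 0.114) and equal sums (adjusted p = 0.208). *Pex3*, the docking factor for PEX19 on the membrane, was at 11.1, 9.80 and 9.27 FPKM at E18.5d, 13.02, 12.58 and 14.82 FPKM at P1d and 11.1, 11.3 and 10.7 FPKM at P7d. It rose by 0.39 at P1d (adjusted p = 0.00409), a call lost with equal sums (adjusted p = 0.140). Its fall of 0.27 to P7d (adjusted p = 0.0262) was lost under all 3 other scalings and without P1d replicate 3 or any single P7d heart (adjusted p 0.0537 to 0.0802).

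The 2 docking peroxins of the matrix import pore also rose at P1d. *Pex14* was at 14.8, 14.0 and 12.3 FPKM at E18.5d, 19.8, 18.7 and 19.8 FPKM at P1d and 14.96, 14.87 and 13.93 FPKM at P7d, so that the P1d hearts stood clear of both other stages. Its log2 change was 0.48 at P1d (SE 0.07, adjusted p = 0.000716), and it fell by 0.39 from P1d to P7d (adjusted p = 0.00245), the latter lost with equal sums (adjusted p = 0.0982). The gene overlaps *Gm17029* on the opposite strand over 28.3% of its exons, and that gene was at 2.89 to 4.49 FPKM. *Pex13* was at 6.45, 5.78 and 7.31 FPKM at E18.5d, 7.34, 7.67 and 8.67 FPKM at P1d and 5.65, 5.73 and 5.62 FPKM at P7d. Its rise of 0.25 at P1d only just passed (adjusted p = 0.0499) and was lost in 7 of the 9 fits that each left out 1 heart (adjusted p up to 0.174, without E18.5d replicate 2). Its fall of 0.41 between P1d and P7d (SE 0.09, adjusted p = 0.00536) was lost only with equal sums (adjusted p = 0.0984) and with the 5 hearts low in *Xist*.

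*Pex2*, a ubiquitin ligase subunit that helps recycle the import receptor, was at 14.6, 14.9 and 12.7 FPKM at E18.5d, 16.3, 17.2 and 19.2 FPKM at P1d and 14.89, 14.99 and 13.8 FPKM at P7d. It rose by 0.30 at P1d (adjusted p = 0.015), which was lost with equal sums (adjusted p = 0.318), with the *Xist* covariate (adjusted p = 0.105) and without E18.5d replicate 3 (adjusted p = 0.0542). Its fall of 0.25 to P7d (adjusted p = 0.0333) was lost in 5 of the 9 fits without 1 heart and under all 3 other scalings.

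The other 7 peroxins passed the threshold in no comparison of the values as deposited. They were the matrix import receptors *Pex5* and *Pex7*, the ligase subunit *Pex10*, the receptor-extracting ATPase subunit *Pex6* and its anchor *Pex26*, and the division factors *Pex11a* and *Pex11g*. *Pex5*, the main receptor, was at 8.53 to 11.4 FPKM at E18.5d, 9.86 to 13.1 FPKM at P1d and 9.30 to 10.7 FPKM at P7d, with stages that overlapped. *Pex6*, *Pex10* and *Pex26* stayed within 2.14 to 7.21 FPKM in all hearts, and *Pex26* had the lowest log2 change of the peroxins at P1d (-0.26, SE 0.12, adjusted p = 0.0943). That difference was called with equal sums and without P1d replicate 2. *Pex26* was also called higher at P7d than at P1d under all 3 other scalings (0.32 to 0.37, adjusted p = 0.0275 to 0.0455) and without P1d replicate 2 (0.40, adjusted p = 0.00728). *Pex7* was called higher at P1d than at E18.5d with median of ratios and quantile normalization (0.27 in both, adjusted p = 0.034 and 0.032) and without P1d replicate 2 (adjusted p = 0.0401). *Pex5* was called higher at P1d, and lower at P7d than at P1d, only without P1d replicate 3 (adjusted p = 0.0323 and 0.0487). *Pex11a*, a PPARα target in liver, was at 1.60, 2.31 and 1.52 FPKM at E18.5d and at 3.25, 2.6 and 2.21 FPKM at P7d, which gave a log2 change of 0.39 (SE 0.15, adjusted p = 0.0505). Under both median of ratios and quantile normalization, *Pex11a*, *Pex7* and *Pex11g* were called higher at P7d than at E18.5d. *Pex11g* shares 41.1% of its exonic bases with *Gm44775* on the opposite strand, which was at 0.41 FPKM or less.

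**Figure D2:**
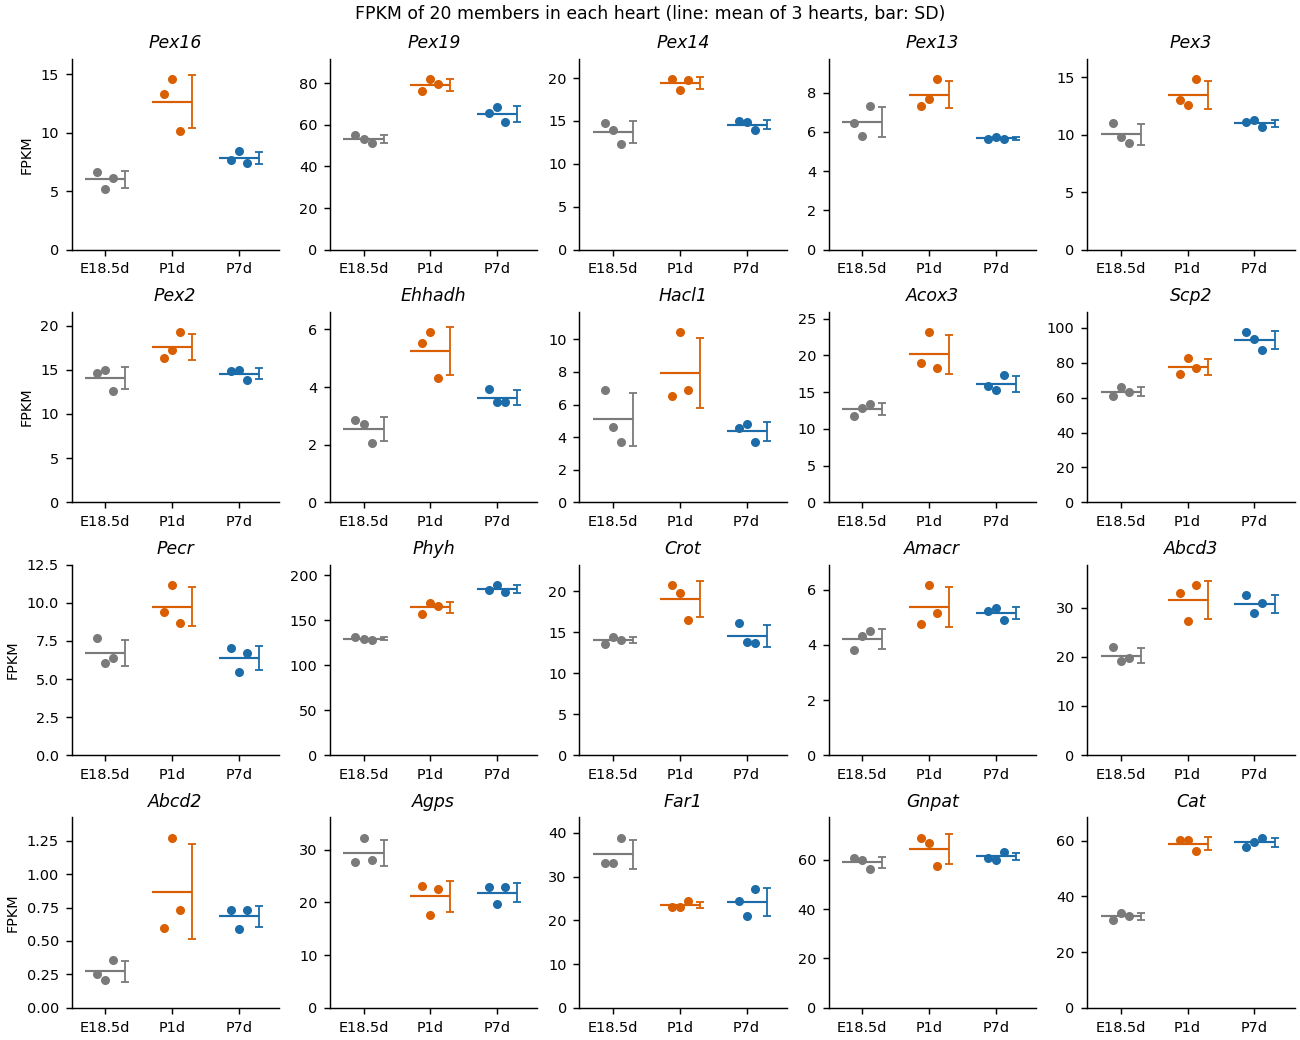
FPKM of 20 members in each of the 9 hearts, with points for hearts, horizontal lines for the mean of 3 hearts and bars for the SD. *Pex16* and *Ehhadh* stand highest at P1d, *Scp2* and *Phyh* rise through P7d, *Cat* reaches its postnatal level at P1d, and *Agps* and *Far1* are lower after birth.

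Among the enzymes of the oxidation spiral, *Ehhadh*, a bifunctional hydratase and dehydrogenase and a known PPARα target, had the largest change at P1d. It was at 2.85, 2.73 and 2.06 FPKM at E18.5d, 5.54, 5.90 and 4.30 FPKM at P1d and 3.94, 3.49 and 3.47 FPKM at P7d. The P1d hearts lay above all others and the P7d hearts above all E18.5d hearts. The mean rose 2.06-fold at P1d, a log2(FPKM + 1) change of 0.81 (SE 0.13, adjusted p = 0.000719), on a scale that understates changes of low genes. At P7d it was 0.39 above E18.5d (adjusted p = 0.0274) and 0.42 below P1d (adjusted p = 0.0221). Each of these last 2 calls was lost in 4 of the 9 fits without 1 heart (adjusted p up to 0.0943, without E18.5d replicate 3) and without the filter on low genes, and the second also with equal sums and median of ratios.

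*Acox3*, an acyl-CoA oxidase of branched-chain substrates, was at 11.8, 12.8 and 13.5 FPKM at E18.5d, 19.0, 23.2 and 18.2 FPKM at P1d and 15.8, 15.3 and 17.4 FPKM at P7d, with no overlap between stages. Its log2 change was 0.62 at P1d (SE 0.10, adjusted p = 0.00069) and 0.33 at P7d (adjusted p = 0.0183), the latter lost with equal sums (adjusted p = 0.0576) and without E18.5d replicate 1 or P7d replicate 3 (adjusted p = 0.0658 and 0.0676). Its fall of 0.30 between P1d and P7d (adjusted p = 0.0308) was lost under all 3 other scalings. *Hsd17b4*, the multifunctional enzyme of the main spiral, lay in a narrow range of 48.2 to 58.2 FPKM. Its P1d hearts were above all others, by 0.22 over E18.5d (SE 0.05, adjusted p = 0.0066), although with equal sums this was 0.04 (adjusted p = 0.740).

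Of the thiolases, *Scp2*, whose longer product is the thiolase for branched chains and whose shorter product carries sterols, rose at each step. It was at 60.9, 66.4 and 63.1 FPKM at E18.5d, 73.3, 82.6 and 77.2 FPKM at P1d and 97.5, 93.8 and 87.3 FPKM at P7d, with no overlap. The log2 change was 0.29 at P1d (adjusted p = 0.00614), lost with equal sums (0.12, adjusted p = 0.294) and with the *Xist* covariate (adjusted p = 0.0605). It was 0.54 at P7d over E18.5d (SE 0.07, adjusted p = 0.000166) and 0.25 at P7d over P1d (adjusted p = 0.012), and these passed under all 3 other scalings. Of its 50-base stretches, 29.7% also occur in another gene, so reads may be split between copies.

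*Acaa1a*, the straight-chain thiolase, was at 18.3 to 20.6 FPKM at E18.5d, 18.8 to 24.7 FPKM at P1d and 21.5 to 25.1 FPKM at P7d, and passed in no comparison. All P7d hearts were above all E18.5d hearts, by 0.25 (adjusted p = 0.0724), and its mean at P7d was 0.17 above P1d (adjusted p = 0.223). With median of ratios it was called higher at P7d than at either earlier stage (0.45 and 0.29, adjusted p = 0.00732 and 0.0476), as it was with quantile normalization, and with equal sums it was called higher than at P1d. Whether its changes differed from those of *Scp2* was not tested. *Acaa1b*, its liver-rich paralog, did not pass the filter. It was listed at 0, 0.05 and 0.02 FPKM at E18.5d, 0.16, 0.19 and 0.03 FPKM at P1d and 0.08, 0.07 and 0.07 FPKM at P7d, which is 8.6 fragments or fewer in each heart. At this depth 3 fragments are worth 0.0404 to 0.0708 FPKM, so no change was read from it, and 39.6% of its 50-base stretches occur in another gene.

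The alpha-oxidation enzymes remove 1 carbon from branched chains such as phytanic acid. *Phyh*, the hydroxylase of the first step, was the most abundant member. It was at 131, 129 and 129 FPKM at E18.5d, 157, 170 and 166 FPKM at P1d and 184, 189 and 181 FPKM at P7d, with no overlap between stages. The mean rose from 129 ± 1.38 to 164 ± 6.50 and then 185 ± 4.02 FPKM (SD, n = 3 hearts). Its log2 changes were 0.34 at P1d (adjusted p = 0.000563) and 0.51 at P7d (SE 0.05, adjusted p = 4.89e-05), both against E18.5d, and the first was lost with equal sums (adjusted p = 0.128). The step of 0.17 from P1d to P7d (adjusted p = 0.0215) was lost without P1d replicate 1, P7d replicate 1 or P7d replicate 2 (adjusted p = 0.0697, 0.0539 and 0.0695) but passed with larger values under the other scalings.

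*Hacl1*, the lyase of the same pathway, did not follow *Phyh*. It was at 6.91, 4.65 and 3.70 FPKM at E18.5d, 6.54, 10.4 and 6.87 FPKM at P1d and 4.53, 4.81 and 3.71 FPKM at P7d. The E18.5d and P1d hearts overlapped, and the rise of 0.56 at P1d (SE 0.21, adjusted p = 0.0497) was lost in 7 of the 9 fits without 1 heart, with 0.37 (adjusted p = 0.161) without P1d replicate 2. All P7d hearts were below all P1d hearts, a fall of 0.72 (SE 0.21, adjusted p = 0.0192) that was lost without P1d replicate 2 (adjusted p = 0.0594) or P7d replicate 3 (adjusted p = 0.0674). Other genes, *Btd* among them, overlap 33.3% of its exonic bases, and *Btd* on the opposite strand was at 10.6 to 12.3 FPKM.

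The auxiliary enzymes prepare unsaturated or branched chains and export the products. *Pecr*, a trans-enoyl-CoA reductase, was at 7.67, 6.02 and 6.38 FPKM at E18.5d, 9.43, 11.2 and 8.67 FPKM at P1d and 7.01, 5.46 and 6.68 FPKM at P7d. It rose by 0.48 at P1d (SE 0.12, adjusted p = 0.00951), lost with equal sums (adjusted p = 0.0600), and fell by 0.54 to P7d (adjusted p = 0.00588), which passed under all 3 other scalings. *Crot*, the octanoyltransferase that hands shortened chains to mitochondria as carnitine esters, was at 13.6, 14.5 and 14.1 FPKM at E18.5d, 20.8, 19.8 and 16.6 FPKM at P1d and 16.1, 13.8 and 13.7 FPKM at P7d. It rose by 0.41 at P1d (SE 0.09, adjusted p = 0.0062) and fell by 0.36 to P7d (adjusted p = 0.0114), the first lost with equal sums (adjusted p = 0.135) and the second with equal sums and median of ratios (adjusted p = 0.171 and 0.0515).

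*Amacr*, the racemase that lets branched chains enter the spiral, was at 3.82, 4.32 and 4.51 FPKM at E18.5d, 4.76, 6.17 and 5.15 FPKM at P1d and 5.23, 5.33 and 4.90 FPKM at P7d. Its rise of 0.28 at P1d (adjusted p = 0.0388) was lost in 7 of the 9 fits without 1 heart (adjusted p up to 0.124, without E18.5d replicate 1). *Decr2*, the peroxisomal dienoyl-CoA reductase, stayed at 10.8 to 12.8 FPKM and was not called under any of the 4 scalings. In P1d replicate 2, 10 of the 29 tested members had their highest value, and *Pex16*, *Ehhadh*, *Acox3* and *Pecr* were among them. This heart had both the highest sum of FPKM (1794160) and the most RNA of liver markers. The same count was not made over all genes, and the part of either was not tested. Without that heart the calls of *Amacr*, *Hacl1* and *Pex13* at P1d over E18.5d were lost, and the log2 changes over E18.5d of *Pex16*, *Ehhadh*, *Acox3* and *Pecr* were still past the threshold.

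The ABC transporters bring acyl-CoA into the organelle. *Abcd3*, the carrier of branched and dicarboxylic substrates and the most abundant membrane protein of liver peroxisomes, was at 21.96, 19.04 and 19.73 FPKM at E18.5d, 33.0, 27.2 and 34.6 FPKM at P1d and 32.5, 28.8 and 30.9 FPKM at P7d. All postnatal hearts were above all E18.5d hearts, and the P1d and P7d hearts overlapped. It rose by 0.61 at P1d (SE 0.10, adjusted p = 0.000741) and by 0.58 at P7d (SE 0.10, adjusted p = 0.000928), and differed by -0.03 between them (SE 0.10, adjusted p = 0.802). Both rises passed under all 3 other scalings.

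*Abcd2*, a carrier of very-long-chain fatty acids that is high in adipose tissue, did not pass the filter. It was at 0.25, 0.21 and 0.36 FPKM at E18.5d, 0.60, 1.27 and 0.73 FPKM at P1d and 0.73, 0.59 and 0.73 FPKM at P7d, or 36.0 to 196.5 fragments per heart. Every postnatal heart was above every E18.5d heart, and without the filter the change at P1d was 0.54 (SE 0.13, adjusted p = 0.018) and that at P7d 0.40 (adjusted p = 0.0508). Adipose markers moved the same way. The summed level of 6 of them was 254 to 266 FPKM at E18.5d, 502 to 641 FPKM at P1d and 392 to 451 FPKM at P7d, with *Fabp4* as the bulk of it. *Adipoq* was at 0.42 FPKM or less at E18.5d and at 1.91 to 3.09 FPKM at P1d, and *Ucp1* was listed at 0 in all 3 E18.5d hearts and at up to 7.26 FPKM at P7d. The part of adipose tissue in the changes of *Abcd2* and the other members was not tested.

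In ether lipid synthesis no gene rose in the values as deposited. *Gnpat*, the acyltransferase of its first step, was at 60.7, 59.7 and 56.2 FPKM at E18.5d, 68.8, 66.7 and 57.5 FPKM at P1d and 60.82, 59.97 and 63.02 FPKM at P7d, with stages that overlapped. It passed in no comparison as deposited but was called higher at P1d and P7d with median of ratios (0.20 and 0.27, adjusted p = 0.0386 and 0.0121). *Agps*, which exchanges the acyl chain for the ether-linked one, was at 27.7, 32.2 and 28.1 FPKM at E18.5d, 23.2, 17.7 and 22.5 FPKM at P1d and 22.8, 19.7 and 22.9 FPKM at P7d. All postnatal hearts were below all fetal hearts. It fell by 0.46 at P1d (SE 0.11, adjusted p = 0.00733) under every scaling, and by 0.41 at P7d (adjusted p = 0.0121), a call lost with median of ratios (-0.21, adjusted p = 0.136), quantile normalization (adjusted p = 0.0862) and equal sums (adjusted p = 0.0514).

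*Far1*, the reductase that supplies the fatty alcohol and is held to set the rate of plasmalogen synthesis, was at 33.2, 33.2 and 38.8 FPKM at E18.5d, 23.0, 23.2 and 24.4 FPKM at P1d and 24.41, 20.98 and 27.21 FPKM at P7d. The postnatal hearts lay below all fetal hearts. The mean fell by 33.0% at P1d, a decrease of 0.55 on the log2 scale (SE 0.10, adjusted p = 0.00147). At P7d it was lower by a similar amount (-0.52, SE 0.10, adjusted p = 0.00188), and both calls passed under all 3 other scalings, the smallest change being -0.32 at P7d with median of ratios. *Agps* and *Far1* were thus both lower at P1d with each of the 4 scalings.

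*Cat* rose early and stayed. The catalase mRNA was at 31.6, 34.0 and 32.9 FPKM at E18.5d, 60.1, 60.3 and 56.4 FPKM at P1d and 57.9, 59.3 and 61.0 FPKM at P7d. The postnatal hearts were far above the fetal hearts and overlapped each other. From 32.8 ± 1.21 FPKM at E18.5d the mean rose 1.80-fold to 58.9 ± 2.21 FPKM at P1d (log2 change 0.83, SE 0.05, adjusted p = 5.92e-06) and stood 1.81-fold higher at P7d (0.84, adjusted p = 4.21e-06). Between P1d and P7d it differed by 0.01 (SE 0.05, adjusted p = 0.884). Red cells are rich in catalase, and the sum of 7 erythroid markers was 8420 to 22749 FPKM at E18.5d, 12736 to 24732 FPKM at P1d and 8552 to 10411 FPKM at P7d. The part of red cells in the change of *Cat* was not tested. With the 5 hearts low in *Xist* alone, of which 1 was from E18.5d, the P1d change was 0.78.

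The peroxins were set against the oxidation and auxiliary enzymes within each heart, as the difference between the mean log2(FPKM + 1) of 11 tested enzymes and of 13 peroxins. These means describe the lists and were given no test. The peroxin mean was 3.01 to 3.11 at E18.5d, 3.31 to 3.39 at P1d and 3.11 to 3.22 at P7d, and the enzyme mean was 3.96 to 4.06, 4.30 to 4.53 and 4.15 to 4.25. Both were highest at P1d. The stages did not overlap in either list, although the highest E18.5d and the lowest P7d value of the peroxins both rounded to 3.11.

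The difference was 0.95, 0.95 and 0.95 in the E18.5d hearts, 1.01, 1.14 and 1.00 in the P1d hearts and 1.02, 0.99 and 1.04 in the P7d hearts. It grew by 0.10 to P1d and by 0.07 to P7d over E18.5d, against standard deviations of 0.0779 among the P1d hearts and 0.0280 among the P7d hearts. From P1d to P7d it changed by -0.03, or by 0.01 without P1d replicate 2. With the median over the members in place of the mean the change was -0.0027 to P1d and -0.0337 to P7d, so its direction depended on the summary used. Within both lists the members ranged more widely than the lists differed, from -0.26 to 0.96 among peroxins and from 0.04 to 0.81 among enzymes at P1d.

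**Figure D3:**
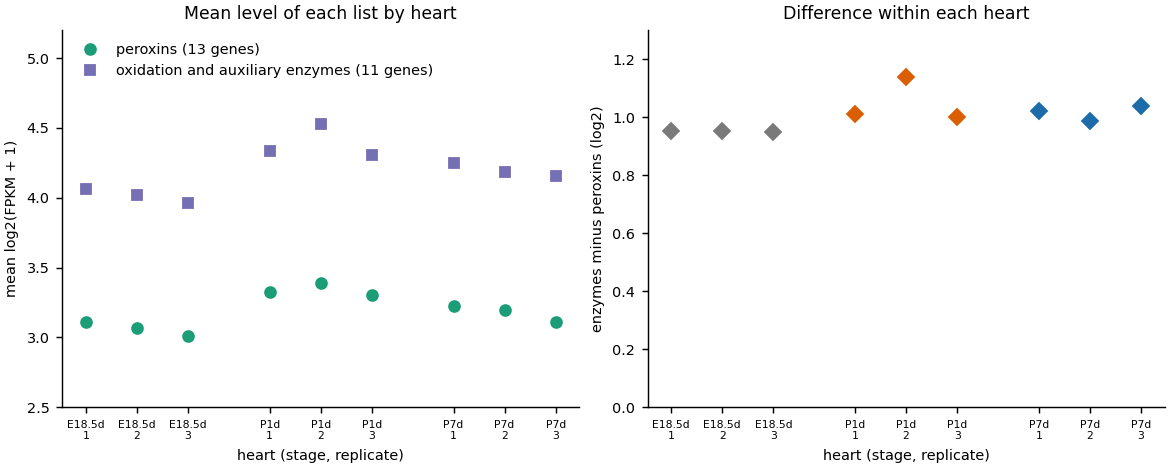
Left, mean log2(FPKM + 1) of 13 peroxins (circles) and 11 oxidation and auxiliary enzymes (squares) in each heart, on an axis that does not start at 0. Right, the difference between them in each heart, from 0.95 in the E18.5d hearts to 1.14 in P1d replicate 2.

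Mitochondrial beta-oxidation, the larger route for fat in the heart, had larger median changes than its peroxisomal counterpart, a difference that was given no test. Of 17 such genes, 16 were higher at P1d than at E18.5d (against 18.4% of all genes tested) and 16 at P7d than at E18.5d (against 12.5%). Their median log2 changes were 0.87 and 0.97. The medians of the 11 peroxisomal enzymes were 0.34 and 0.24. The largest mitochondrial changes were those of *Slc25a20*, the carnitine carrier, at P1d (1.46) and *Decr1*, the mitochondrial dienoyl-CoA reductase, at P7d (1.57). From P1d to P7d 5 of the 17 rose (against 15.5% of all genes) and 1, *Echs1*, fell (against 28.6%). Its fall of 0.55 was the largest change among these 17 in that comparison. Within hearts the mean of the mitochondrial list exceeded that of the peroxisomal enzymes by 2.84 ± 0.0175 in fetal, 3.25 ± 0.0986 in P1d and 3.53 ± 0.0343 in P7d hearts (log2 scale, SD, n = 3 hearts). *Decr2* and *Decr1*, which carry out the same reduction in the 2 organelles, had log2 changes of -0.12 (SE 0.06, adjusted p = 0.141) and 1.57 (SE 0.06, adjusted p = 2.09e-07) at P7d over E18.5d.

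**Figure D4:**
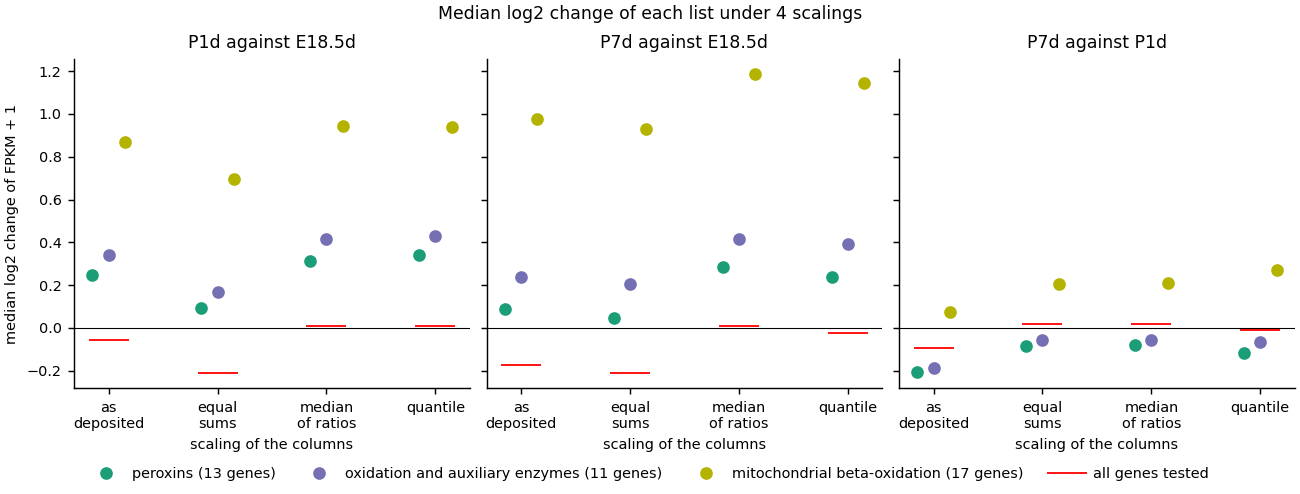
Median log2 change of the peroxins, the oxidation and auxiliary enzymes and the mitochondrial beta-oxidation genes in the 3 comparisons, with the FPKM columns as deposited and under 3 other scalings. The red bars are the median of all genes tested; both peroxisomal lists lie above it in the 2 comparisons with E18.5d and below it in P7d against P1d under each scaling, and the mitochondrial list lies above it throughout.

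Beyond the members, 49 other genes of peroxisomal or shared peroxisomal products were counted, of which 35 passed the filter. Against E18.5d, P1d hearts had 13 of these genes up (37.1%, against 18.4% of all genes tested) and 5 down (14.3%, against 27.6%). P7d hearts had 10 up (28.6%, against 12.5%) and 6 down (17.1%, against 36.9%). Between P1d and P7d 4 rose (11.4%, against 15.5%) and 13 fell (37.1%, against 28.6%). Median of ratios gave 16 up and 2 down for P7d against E18.5d, beside 3159 and 2545 of all 13618 genes. Without E18.5d replicate 2 or any 1 of the P7d hearts 3 were lower in that comparison, beside 4058 to 4354 of all genes. *Mlycd*, malonyl-CoA decarboxylase, which is found in peroxisomes, mitochondria and cytosol, was at 10.6, 10.7 and 10.3 FPKM at E18.5d, 53.4, 49.8 and 36.6 FPKM at P1d and 42.5, 38.7 and 40.4 FPKM at P7d. Its log2 changes of 2.03 at P1d (adjusted p = 3.7e-06) and 1.85 at P7d (adjusted p = 4.19e-06) against E18.5d exceeded that of any member. *Ech1*, a dienoyl-CoA isomerase of both organelles, rose from 107 to 121 FPKM at E18.5d to 332 to 406 FPKM at P1d and 480 to 514 FPKM at P7d.

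*Eci2*, an enoyl-CoA isomerase of both organelles, rose by 1.23 at P1d from 72.8 to 78.0 FPKM to 168 to 193 FPKM, and *Dhrs4*, a peroxisomal carbonyl reductase, by 1.25 at P7d from 14.5 to 16.3 FPKM to 36.9 to 42.2 FPKM.

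Among the decreases, *Trim37*, a ubiquitin ligase reported to act on PEX5, was at 12.7, 12.8 and 11.9 FPKM at E18.5d, 5.98, 5.16 and 6.49 FPKM at P1d and 6.79, 6.31 and 7.64 FPKM at P7d. It fell by 0.97 at P1d (adjusted p = 4.54e-05) and by 0.77 at P7d (adjusted p = 0.000152). *Acot8*, a peroxisomal thioesterase, fell by 0.61 at P1d, and *Dnm1l*, the dynamin-related protein that divides peroxisomes and mitochondria, by 0.49. At P7d over E18.5d *Nudt19*, a CoA-cleaving hydrolase of peroxisomes, fell by 0.55 (SE 0.06, adjusted p = 7.95e-05 in limma). *Gstk1*, a glutathione transferase, fell by 0.53 with a wider spread (SE 0.16, adjusted p = 0.0213). It was at 12.1, 12.4 and 11.5 FPKM at E18.5d and at 9.90, 7.85 and 6.52 FPKM at P7d.

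**Figure D5:**
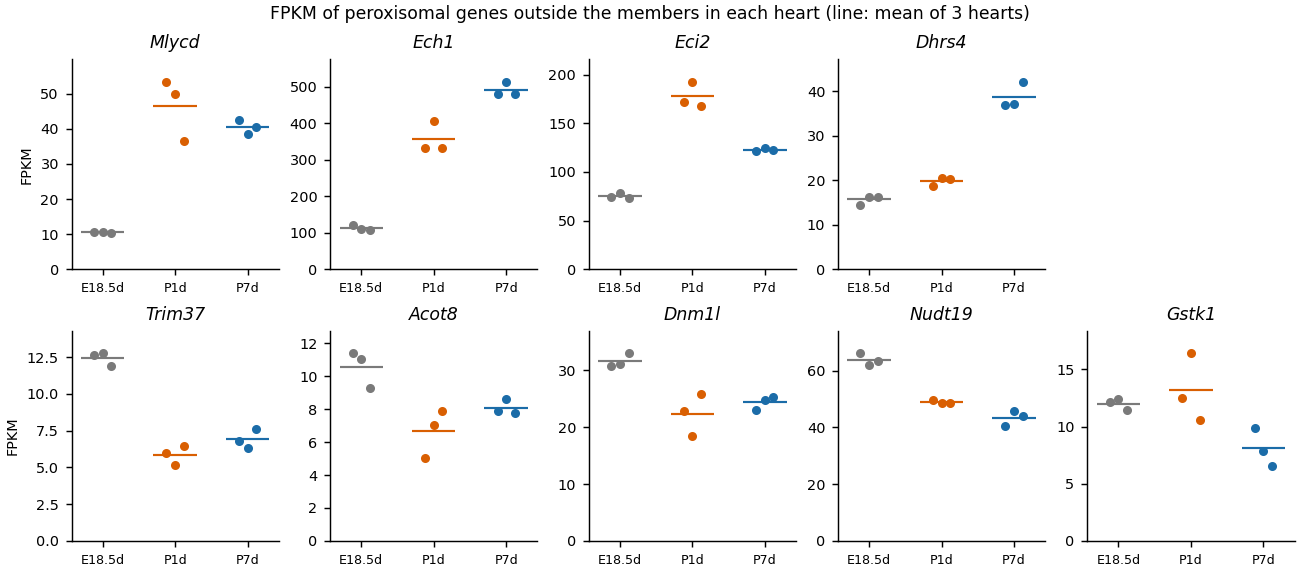
FPKM of 9 peroxisomal genes outside the members in each heart, with points for hearts and lines for the mean of 3 hearts. The upper row shows genes that were higher after birth, with *Mlycd* near 10 FPKM in the E18.5d hearts and above 36 FPKM in all others, and the lower row shows genes that were lower at P1d or P7d.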

How the data were processed

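RNA-seq values of 9 mouse hearts were used, 3 each at E18.5d, P1d and P7d, grouped by the stage in their labels. The authors deposited FPKM (fragments per kilobase of transcript, scaled to sequencing depth), rounded to 2 decimals, with 1 column per heart for 48820 genes. Per the submitters' processing notes, reads were aligned with STAR and the builds GRCm38 and mm10 are named. The counting tool, its strand setting and the annotation are not given in the sources used here. The library kit does not mark strand, so reads of genes that overlap on opposite strands cannot be told apart. FPKM are not counts, so no count model was used.

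Values were taken as log2(FPKM + 1), a scale that understates changes of low genes. Genes averaging 1 FPKM or more (13618) entered 1 limma 3.58.1 fit of all 9 hearts in R 4.3.3, with a moderated variance that follows the mean (eBayes, trend on) and no covariates. P-values were Benjamini-Hochberg adjusted over these genes, with a threshold of 0.05. Self-tests ran on simulated data with known changes. Positions and overlaps came from GENCODE M21 of GRCm38, where shared sequence was counted over 50-base stretches, and promoters from RefSeq. Summaries and figures were made in Python 3.11.15 with numpy 2.4.6, pandas 2.3.3 and matplotlib 3.10.9.

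The members and gene lists were chosen with earlier results of these data known. Values per heart are given for the members past the threshold with the largest log2 changes (up to 6 peroxins and 8 oxidation and auxiliary enzymes), for all transporters, ether lipid enzymes and catalase, and for members under the filter. Of the other peroxisomal genes, the 3 largest changes in each direction at P1d and at P7d against E18.5d are named, among those called whose hearts did not overlap. The fit was repeated with equal column sums, median of ratios or quantile normalization. It was also repeated with a pseudocount of 0.1, all genes or only those averaging 5 FPKM, an untrended eBayes, the 2 compared stages alone, a replicate block, a covariate for *Xist* above 1 FPKM, the hearts under that *Xist* level alone, a minimum log2 change of 0.5, and each heart left out in turn. For the difference between enzymes and peroxins, the median and all 18 members that are not peroxins were also used. Protein sequences were not used here.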

Additional observations from a re-analysis of the deposited data

How the results depend on the processing

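Of the 42 calls of single members, 42 were kept with a pseudocount of 0.1, 41 without the trend, 37 with quantile normalization or with only the 2 stages compared, 34 with median of ratios or without the filter, 28 with the *Xist* covariate, 21 with equal sums and 2 with only the 5 hearts low in *Xist*, a fit of few hearts. No member's call reversed its sign under any of these or without any 1 heart. The fit of the 5 hearts low in *Xist* kept 1 heart at E18.5d and 1 at P7d. Its count here does not describe the members, and its counts are left out below. The causes of the lost calls were not tested.

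Members called higher at P1d over E18.5d numbered 7 with equal sums and 11 with the covariate, beside 1175 and 1607 of all 13618 genes. With an absolute log2 change of at least 0.5 they were 7 higher and 1 lower. At P7d over E18.5d they were 19 higher and 1 lower under median of ratios, and 17 and 1 under quantile normalization. All genes gave 3159 and 2545, and 2889 and 2937, in these fits. With equal sums 1 member was lower, beside 4443 of all genes, and past 0.5 the members were 4 and 1. At P7d over P1d they were 4 higher and 3 lower with equal sums, 4 and 5 under median of ratios, and 1 and 5 with the covariate. All genes gave 2200 and 1729, 3194 and 2471, and 1467 and 2438 in these fits. Under quantile normalization 4 members were higher, beside 2879 of all genes. With the 2 stages alone 1 member was higher, beside 1843 of all genes. Past 0.5 the members were 0 and 3. Calls of all genes past 0.5 were not counted, so the counts past 0.5 are not read as a result about the members. The calls over all genes moved as well, at P7d over E18.5d from 1706 higher as deposited to 3159 under median of ratios. Without 1 heart the calls of all genes at P1d over E18.5d ran from 1988 to 2646 higher and 3065 to 3676 lower. At P7d over E18.5d they ran from 1410 to 1842 and 4058 to 5325, and at P7d over P1d from 1647 to 2083 and 3061 to 3821. In the same order, the counts of members ran from 14 to 17 and 2 to 3, from 6 to 10 and 2 to 2, and from 1 to 4 and 7 to 12. The highest of these, 4 members higher at P7d than at P1d, came without P1d replicate 2, and the lowest, 1, without P1d replicate 1, P7d replicate 1 or P7d replicate 2.

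The other peroxisomal genes called at P1d over E18.5d were 8 higher with equal sums, beside 1175 of all 13618 genes. At P7d over E18.5d they were 16 higher and 2 lower under median of ratios, beside 3159 and 2545 of all genes. Under quantile normalization they were 2 lower, beside 2937 of all genes. At P7d over P1d they were 5 lower with equal sums, 8 with median of ratios or quantile normalization and 7 with the covariate. Of all genes, 1729, 2471, 2787 and 2438 were lower in these fits, in that order. Without 1 heart the other peroxisomal genes ran from 11 to 17 and 5 to 5, from 8 to 11 and 3 to 7, and from 3 to 5 and 8 to 12. The ranges of all genes in the same fits are given above.

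The difference between enzymes and peroxins changed by 0.0982 at P1d over E18.5d, by -0.0019 with a mean of at least 5 FPKM, -0.0027 with the median and 0.0149 with all members that are not peroxins. At P7d over E18.5d the change was 0.065, or -0.0337 with the median and 0.0424 with all members that are not peroxins. At P7d over P1d it was -0.0332, or 0.0599 with a mean of at least 5 FPKM and 0.0275 with all members that are not peroxins. Without 1 heart these ran from 0.0533 to 0.1232, from 0.053 to 0.0803 and from -0.0582 to 0.0117.

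With the replicate number as a block, 41 of the 42 calls were kept, the exception being *Pex2* at P7d over P1d (-0.25, adjusted p = 0.0554), and the difference between enzymes and peroxins had the same values (0.0982 at P1d over E18.5d). Same-numbered hearts of 2 stages correlated at -0.055 to 0.112 in their deviations from the stage means, so the numbers were not taken as pairs.

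All results rest on 3 hearts a stage and on FPKM in place of counts. Fragments per heart were estimated only for the members under the filter and for *Pex11a* and *Pex11g*. The values of *Pex11a* and *Pex11g* rested on 110.6 to 339.5 fragments per heart. Other members of low FPKM, such as *Ehhadh*, were not examined in this way.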

Other observations

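The nuclear receptors and coactivators that act on peroxisomal genes moved in several directions. Of 9 such genes tested, 6 were higher (66.7%, against 18.4% of all genes tested) and 1 lower (11.1%, against 27.6%) at P1d than in the fetal hearts (limma, adjusted p under 0.05). At P7d 3 stood above the fetal level (33.3%, against 12.5%), and between P1d and P7d 3 rose and 3 fell (33.3% each, against 15.5% and 28.6%). *Ppara*, which encodes PPARα, was at 13.4, 10.9 and 10.4 FPKM at E18.5d, 6.22, 8.49 and 9.24 FPKM at P1d and 11.1, 12.3 and 10.7 FPKM at P7d. It was lowest at P1d (log2 change over E18.5d -0.49, SE 0.14, adjusted p = 0.0154). *Pparg*, *Rxra*, *Rxrb*, *Rxrg* and *Esrra* were higher at P1d than at E18.5d. Their log2 changes were 0.67, 0.35, 0.40, 0.52 and 0.18 (adjusted p = 0.00372 to 0.0376 in limma). *Ppargc1a*, the coactivator PGC-1α, was at 29.1, 30.3 and 30.6 FPKM at E18.5d, 46.3, 53.3 and 47.7 FPKM at P1d and 27.6, 29.7 and 32.7 FPKM at P7d. It rose by 0.69 at P1d (SE 0.08, adjusted p = 0.000108) and fell by 0.69 to P7d (adjusted p = 0.00014). *Rxrg*, an RXR partner, rose from 0.34 to 0.47 FPKM at E18.5d to 7.66 to 9.73 FPKM at P7d. How these changes relate to those of the members was not tested.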
